A study of Mus musculus with 24 samples.

Results

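The genes described here are 37 glutamate receptor and postsynaptic scaffold genes of the mouse, taken by symbol from a fixed list. All 37 were among the 24062 genes of the counts table and all 37 passed the filter on low counts that left 16313 genes for testing. They comprise 4 AMPA, 4 kainate and 6 NMDA receptor subunits, 1 delta receptor, 6 metabotropic receptors, 2 auxiliary subunits of AMPA receptors, 12 scaffold genes of the Dlg, Dlgap, Shank and Homer families, and 2 subunits of calcium/calmodulin-dependent kinase II. RNA sequencing of dissected hippocampus gave 24 libraries of C57BL/6 mice. WT control mice (n = 7), WT stress mice (n = 6), IL-1R1 knockout control mice (n = 6) and IL-1R1 knockout stress mice (n = 5) were sequenced, and the stress was paired fighting social defeat. The knockout (KO) is of the interleukin 1 receptor in neurons, per the series title. Whether WT and KO mice differ in neurons only cannot be checked from these data. The labels do not give the promoter that drives the deletion, the age or sex of the mice, or the length of the stress. They also do not say that each library came from a mouse of its own, so that the p-values below measure the spread between these libraries, part of which may be technical.

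Glutamate is the main excitatory transmitter of the hippocampus. AMPA receptors carry fast synaptic current, NMDA receptors admit calcium when the membrane is already depolarised, kainate receptors act on both sides of the synapse, and metabotropic receptors signal through G proteins. Behind the synaptic membrane, Dlg proteins bind receptors, Dlgap proteins link Dlg to Shank, Shank and Homer tie the assembly to metabotropic receptors and actin, and calcium/calmodulin-dependent kinase II is activated by calcium entering through NMDA receptors.

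None of these genes passed a test between the groups of the study (edgeR, adjusted p under 0.05), where at most 0.135% of all genes did. Between libraries of lower and higher replicate number 20 passed, where 20.8% of all genes did, as described below. For members that differed there, 4 promoter windows are printed. A RefSeq promoter was taken for 24 of the 37 members. For 17 of them a listed start lay within 200 bases of the start of the principal GENCODE transcript. Camk2a, which also passed the test between library numbers, was left out of this search. The windows and motif counts below therefore say nothing about its promoter. The 4 windows shown belong to the members among those 17 that passed the test between library numbers and whose 250 bases before the RefSeq start touched no annotated exon. They are written 5′ to 3′ on the strand of the gene (RefSeq, GRCm38.p6), and capitals mark GC boxes, searched as GGGCGG and its reverse complement CCGCCC. Grm2 (chr9:106656110-106656359, minus strand), Camk2b (chr11:6065749-6065998, minus strand) and Gria2 (chr3:80802836-80803085, minus strand) were higher in the later libraries, and Grik3 (chr4:125490446-125490695, plus strand) was lower.
Grm2: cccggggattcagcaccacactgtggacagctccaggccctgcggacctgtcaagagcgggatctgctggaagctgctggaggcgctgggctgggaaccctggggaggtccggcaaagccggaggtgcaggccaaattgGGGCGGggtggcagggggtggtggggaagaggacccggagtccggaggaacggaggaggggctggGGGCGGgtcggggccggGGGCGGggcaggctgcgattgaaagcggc
Camk2b: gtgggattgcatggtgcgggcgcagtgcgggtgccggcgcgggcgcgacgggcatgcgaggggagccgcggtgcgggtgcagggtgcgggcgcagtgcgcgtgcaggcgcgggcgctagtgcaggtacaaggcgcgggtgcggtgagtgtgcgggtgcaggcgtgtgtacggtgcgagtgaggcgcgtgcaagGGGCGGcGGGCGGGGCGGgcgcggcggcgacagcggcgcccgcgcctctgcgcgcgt
Gria2: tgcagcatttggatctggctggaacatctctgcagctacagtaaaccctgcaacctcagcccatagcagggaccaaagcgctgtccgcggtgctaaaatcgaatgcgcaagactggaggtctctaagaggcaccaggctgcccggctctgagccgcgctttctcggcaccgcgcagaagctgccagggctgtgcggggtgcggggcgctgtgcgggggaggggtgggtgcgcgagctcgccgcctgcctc
Grik3: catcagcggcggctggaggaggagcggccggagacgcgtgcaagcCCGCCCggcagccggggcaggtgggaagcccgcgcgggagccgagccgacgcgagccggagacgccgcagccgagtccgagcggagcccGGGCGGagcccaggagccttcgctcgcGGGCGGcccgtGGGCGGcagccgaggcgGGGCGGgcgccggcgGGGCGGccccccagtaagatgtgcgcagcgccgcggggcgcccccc
Grm2 and Camk2b each held 3 GC boxes, Grik3 held 6 and Gria2 held 0. With only Grik3 lower among these 4, the counts cannot show whether the motif goes with the direction, which was not tested. Some of the 17 windows lay partly in annotated exons, for 190 of 250 bases in Grik2, 172 in Homer3, 164 in Dlg4, 124 in Grm8 and at most 80 in the others. Over the 17 windows a GC box stood in 3 of 6 members that were higher, 2 of 3 that were lower and 5 of 8 that did not pass, beside 32.7% of all 32851 RefSeq windows of that length. TGACG, which is contained in the cyclic AMP response element TGACGTCA, stood in 0 of 6, 1 of 3 and 1 of 8 of them, beside 17.8% of all windows. TGACGTCA and TATAAA, searched on both strands, stood in none of the 17, beside 1.55% and 12.4% of all windows. The windows of these members were rich in G and C, with a median of 68.0% in the members that were higher, 68.8% in those that were lower and 63.8% in the others, beside 52.4% over all windows.

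Depth ran from 25711872 to 35148198 counts per library. The libraries stood apart by their replicate number in the titles. The 11 libraries with the lower numbers of each group (up to 3 in WT control, 2 in WT stress, 4 in KO control and 2 in KO stress), called low-numbered here, held 24240 to 50450 CPM (counts scaled to the size of the library) of the ribosomal precursor Rn45s, and the 13 later, high-numbered libraries held 4107 to 8786 CPM. The labels do not say what the numbers stand for, and the border between them was placed by an earlier look at Rn45s, so the number class is a feature of the libraries and not a group of the study. High-numbered libraries made up 4 of 7 WT control, 4 of 6 WT stress, 2 of 6 KO control and 3 of 5 KO stress libraries. In addition, WT stress 5 and KO stress 3 and 5 had a summed level of 12 thalamus and habenula markers of 640 to 854 CPM, above the 557 CPM of the next library. Il1r1, the targeted gene, was at 1.99 to 7.32 CPM in WT and 2.10 to 7.93 CPM in KO libraries, which checks nothing in whole tissue, where other cells keep the gene by design. Pyramidal and granule cell markers of the hippocampus, interneuron, glial, striatal and neocortical markers were all detected. In such bulk tissue fewer cells of a type and less RNA per cell cannot be told apart.

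Levels were compared between genes as CPM per kilobase of merged exons (GENCODE M21), a scale that depends on the exon model, since the annotation used in counting is not given in the sources used here. Camk2a, the alpha subunit of the kinase, stood first with a median of 541 CPM per kilobase (375 to 906 over 24 libraries), and Camk2b, its beta subunit, followed with 311 (264 to 511). Dlgap3 at 166, the obligatory NMDA receptor subunit Grin1 at 131, the kainate receptor subunit Grik5 at 113, Dlg4 at 101, Shank1 at 98.9 and Gria1 at 98.2 CPM per kilobase came next, and the ranges of neighbours among these 6 genes overlapped. The lowest were Grm8 at 1.90, Grin2b at 1.33 and Grin2a at 0.462 CPM per kilobase.

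**Figure D1:**
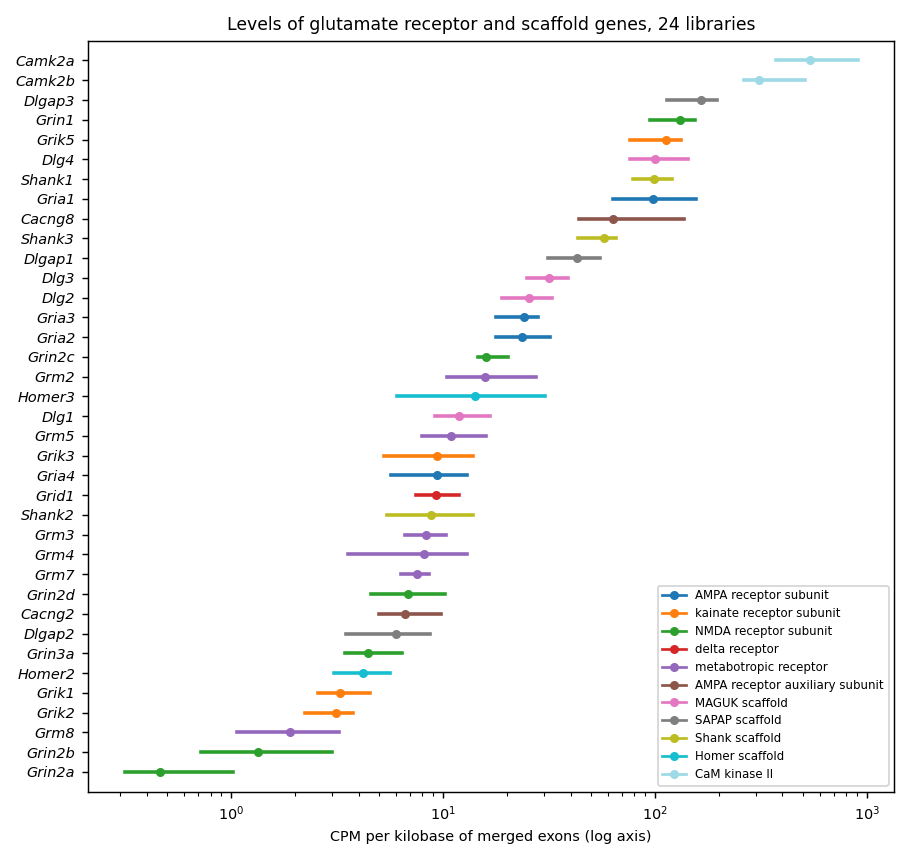
Level of each of the 37 genes in CPM per kilobase of merged exons on a log axis, where the point is the median and the line the lowest to highest of 24 libraries, coloured by role. Camk2a at 541 and Grin2a at 0.462 CPM per kilobase mark the ends of the order.

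Within the AMPA receptor family Gria1 lay above the rest, with 63.4 to 156 CPM per kilobase in every library beside 17.8 to 28.0 for Gria3, 17.8 to 32.1 for Gria2 and 5.66 to 13.0 for Gria4. Gria2, whose subunit makes the receptor poorly permeable to calcium, and Gria3 had overlapping ranges and medians of 23.6 and 24.2, while per kilobase of coding sequence Gria2 had 93.4 and Gria3 49.4. Cacng8, the auxiliary subunit enriched in hippocampus, had a median of 63.4 CPM per kilobase and Cacng2, known as stargazin, one of 6.58. Among kainate receptor genes Grik5 had 113 and Grik2 3.13 CPM per kilobase at the median, and the other 2 lay between them. Per kilobase of coding sequence Grik1 and not Grik2 was the lowest, with 4.90 beside 11.9.

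Among NMDA receptor genes Grin1 was followed by Grin2c with a median of 15.9 CPM per kilobase, Grin2d with 6.87 and Grin3a with 4.42. Grin2a and Grin2b, which encode the regulatory subunits of most forebrain NMDA receptors, were the lowest of the 37 genes on this scale. Their annotated exons are long, and per kilobase of coding sequence alone Grin2b had 7.44 and moved to rank 34, while Grin2a had 1.57 and remained at rank 37. Grin2c still stood above them with 21.6 CPM per kilobase of coding sequence. In reads, Grin2a was at 4.70 to 15.3 CPM, Grin2b at 17.8 to 74.5 CPM, Grin2c at 73.3 to 102 CPM and Grin1 at 416 to 678 CPM.

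Among metabotropic receptors Grm2, an inhibitory autoreceptor of presynaptic terminals, had the highest median with 15.7 CPM per kilobase and Grm8 the lowest. Grm5, the postsynaptic receptor bound by Homer, had a median of 10.9, and its range of 7.92 to 16.0 overlapped that of Grm2, 10.5 to 27.5. The delta receptor Grid1 had a median of 9.22. Of the scaffolds, Dlg4, the most abundant Dlg protein of the postsynaptic density, had 101 and Dlg1 11.9 CPM per kilobase, Dlgap3 166 and Dlgap2 6.02, Shank1 98.9 and Shank2 8.73, with Shank3 at 57.4. Homer3 had 14.2 and Homer2 4.18 CPM per kilobase of merged exons, but per kilobase of coding sequence the order turned, with 37.9 for Homer3 and 43.9 for Homer2. Homer3 varied most of the 37 genes over the 24 libraries, with a coefficient of variation of 47.1% on the CPM scale, followed by Grin2b with 42.7%, and Grin2c with 8.51% and Grm7 with 8.83% varied least. Across the 37 genes, which are not independent, the log2 level per kilobase and the GC content of the principal transcript had r = 0.44 and rho = 0.40 as a description of these libraries.

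Social defeat was first compared within each genotype, which asks whether these genes differed with stress. In WT mice 0 of 37 members passed (edgeR quasi-likelihood test with Benjamini-Hochberg adjustment over 16313 genes, adjusted p under 0.05), where 0.135% of all genes did. At an unadjusted p under 0.05 there was 1 member, beside 720 of all 16313 genes, and DESeq2 and limma voom called 0. The members' log2 fold changes ran from −0.39 to 0.36 with a median of −0.07, and 28 of 37 lay below 0, beside a median of −0.00125 over all genes tested. Of all 16313 genes 8230 lay below 0, as did 35 of 48 other genes of the glutamate synapse and 5 of 6 general neuronal markers. Genes of the same libraries are not independent. The standard errors of the members' differences ran from 0.07 to 0.37 with a median of 0.14.

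Grid1, a receptor of the delta family that organises synapses, had the smallest p in WT mice. It ran from 47.6 to 68.4 CPM (median 57.0) in WT controls and from 43.0 to 53.6 CPM (median 51.2) in WT stress mice, and the ranges overlapped. Its log2 fold change was −0.21 ± 0.08 (SE; adjusted p = 0.987 in edgeR, where it was the member with an unadjusted p under 0.05). Within the high-numbered libraries alone it was −0.25 (adjusted p = 0.306) and within the low-numbered ones −0.20 (adjusted p = 0.660). Cacng2 ran from 30.9 to 51.7 CPM (median 35.7) in WT controls and from 27.4 to 38.6 CPM (median 33.3) in WT stress mice, a log2 fold change of −0.24 ± 0.13 (adjusted p = 1.0 in edgeR). It was −0.41 in low-numbered and −0.09 in high-numbered libraries, with overlapping groups over all libraries.

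In KO mice 0 of 37 members passed between stress and control, where 0.00613% of all genes did. In edgeR 0 members had an unadjusted p under 0.05, beside 648 of all 16313 genes. DESeq2 and limma voom also called 0 members, and at an unadjusted p under 0.05 DESeq2 had 0 members and limma voom 3. Counts of all genes at that cut were not computed for DESeq2 and limma voom. The members' median log2 fold change was −0.07 with 26 of 37 below 0, beside a median of 0.00515 over all genes. Of all 16313 genes 7922 lay below 0, as did 32 of 48 other genes of the glutamate synapse and 5 of 6 general neuronal markers. Grin3a, an NMDA receptor subunit that lowers calcium entry, ran from 27.2 to 36.2 CPM (median 31.1) in KO controls. In KO stress libraries 1 to 5 it was at 33.5, 33.8, 42.9, 27.1 and 47.8 CPM, and its log2 fold change was 0.24 ± 0.14 (adjusted p = 0.988 in edgeR). The higher values were those of libraries 3 and 5, the libraries with high thalamic markers. With the mean of the thalamus markers and the number class as terms the difference of Grin3a was 0.05 (adjusted p = 1.0), a fit chosen after the data were seen. Over all 13 alternatives other than leaving out 1 library it ran from 0.0023 to 0.37. The part of thalamic tissue in the difference was not tested. Dlgap3, the scaffold that is highest in this family, ran from 663 to 855 CPM (median 753) in KO controls. In KO stress libraries 1 to 5 it was at 668, 852, 553, 701 and 499 CPM, and its log2 fold change was −0.19 ± 0.12 (adjusted p = 0.988 in edgeR). The low values were again those of libraries 3 and 5, and within the low-numbered libraries the difference was 0.03.

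The interaction, the stress effect in KO mice minus that in WT mice, passed in 0 of 37 members and 0% of all genes, with 0 calls in DESeq2 and limma voom. In edgeR 0 members had an unadjusted p under 0.05, beside 384 of all 16313 genes. The smallest p belonged to Cacng2 with a difference of log2 fold changes of 0.25 ± 0.19 and Grin3a with 0.24 ± 0.19 (adjusted p = 1.0 for each in edgeR). The median over the 37 genes was −0.0080, with 17 above and 20 below 0.

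KO and WT mice were then compared at matched treatment. In controls 0 of 37 members passed, where 0% of all genes did, and DESeq2 and limma voom called 0. In edgeR 1 member had an unadjusted p under 0.05, beside 493 of all 16313 genes. At an unadjusted p under 0.05 DESeq2 had 1 member and limma voom 5, and their counts over all genes were not computed. Grm4, a presynaptic receptor of the mGluR family, ran from 19.9 to 46.1 CPM (median 30.4) in WT controls and from 32.1 to 66.4 CPM (median 54.0) in KO controls. Its log2 fold change was 0.58 ± 0.28 (adjusted p = 1.0 in edgeR, where it was the member with an unadjusted p under 0.05), with overlapping ranges, and 0.37 and 0.47 within the low- and high-numbered libraries. Cacng8 ran from 119 to 261 CPM (median 178) in WT controls and from 83.0 to 184 CPM (median 110) in KO controls, a log2 fold change of −0.43 ± 0.23 (adjusted p = 1.0 in edgeR). Within the low- and high-numbered libraries it was −0.22 and −0.24. Both genes differed between number classes, described below, and 4 of 6 KO controls but 3 of 7 WT controls were low-numbered. The thalamus markers summed to a median of 340 CPM in KO and 146 CPM in WT controls. With their mean as a term in the fit the difference was 0.27 for Grm4 and −0.15 for Cacng8 (adjusted p = 0.993 for each in edgeR). Of the listed striatal markers all 8 tested were above 0 in KO against WT controls, with 0 called, a median log2 fold change of 1.08 and summed medians of 519.9 and 291.5 CPM, and their part in these values was not tested.

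Under stress 0 of 37 members passed between KO and WT mice, where 0% of all genes did, with 0 calls in DESeq2 and limma voom. In edgeR 0 members had an unadjusted p under 0.05, beside 768 of all 16313 genes. Limma voom had 8 members at an unadjusted p under 0.05 (lowest adjusted p 0.230), and DESeq2 had 0. Their counts over all genes at that cut were not computed, so the 8 cannot be read against a background. Cacng2 ran from 27.4 to 38.6 CPM in WT stress mice and was at 45.8, 36.0, 33.8, 39.5 and 43.0 CPM in KO stress libraries 1 to 5, a log2 fold change of 0.25 ± 0.14 (adjusted p = 0.798 in edgeR). Grm2 ran from 60.3 to 130 CPM (median 97.3) in WT stress mice. It was at 58.3, 69.9, 68.4, 107 and 66.5 CPM in KO stress libraries 1 to 5, so that 1 of 5 lay above the WT median. The log2 fold change of Grm2 was −0.36 ± 0.24 (adjusted p = 0.798 in edgeR), and 0.03 within the low-numbered libraries. All 4 comparisons of 2 groups share groups with each other, so their values are not independent.

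**Figure D2:**
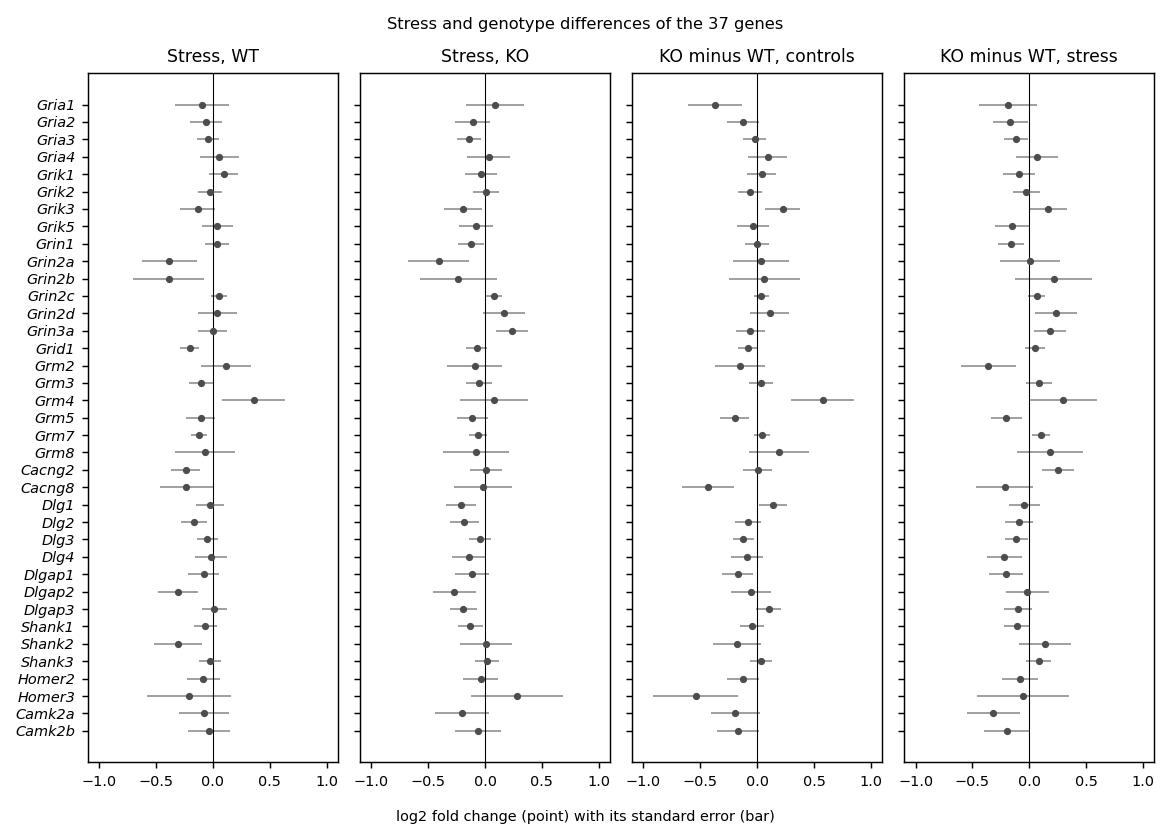
Log2 fold change of each of the 37 genes with its standard error for stress in WT mice, stress in KO mice, KO minus WT in controls and KO minus WT under stress. None passed an adjusted p of 0.05, and in WT mice the points run from −0.39 to 0.36.

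The levels of 9 receptor, scaffold and kinase genes are given for all 4 groups. Gria1 had medians of 678 CPM in WT control, 606 in WT stress, 385 in KO control and 499 in KO stress mice, with ranges of 406 to 900, 400 to 886, 372 to 799 and 367 to 792 CPM. Gria2 had medians of 260, 262, 245 and 209 CPM in the same order, and Grin1 565, 585, 560 and 498 CPM. Grin2a had 7.13, 6.62, 8.48 and 6.29 CPM and Grin2b 31.8, 31.8, 36.8 and 32.2 CPM. Grm5 had 89.6, 89.7, 84.4 and 76.7 CPM, Dlg4 1400, 1265, 1193 and 1035 CPM, Shank3 439, 434, 443 and 434 CPM, and Camk2a 4450, 3769, 3060 and 2765 CPM. The ranges of the 4 groups overlapped for each of these 9 genes. High-numbered libraries made up 4 of 7, 4 of 6, 2 of 6 and 3 of 5 of the groups in this order. All of these genes but Grin1 passed between the number classes, described below. The medians are not adjusted for that mix or for the thalamic libraries, so their order over the groups cannot be read as an effect of stress or knockout.

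Between the number classes of the libraries many of these genes differed, with Gria1, Gria2, the kinase subunits and Homer3 higher and Grin2a, Grin2b, Grm4 and Grm8 lower in the later libraries. With the 4 groups as terms in the fit, 20 of 37 members passed between high-numbered (n = 13) and low-numbered (n = 11) libraries, where 20.8% of all genes did. Of these, 14 were higher in the high-numbered libraries, where 11.2% of all genes were, and 6 were lower, where 9.56% were (edgeR, adjusted p under 0.05). The members' median log2 fold change was 0.12, beside 7.75e-05 over all genes tested. Marker lists moved with the class too. The summed level of 9 of 10 listed CA1 and CA3 pyramidal markers that were in the table ran from 456 to 630 CPM (median 568) in low-numbered and from 544 to 1181 CPM (median 975) in high-numbered libraries. That of 10 dentate granule cell markers ran from 173 to 271 (median 202) and from 270 to 435 CPM (median 349), with 8 of 9 and 8 of 10 members of these lists higher and 1 of each lower. The sum of 8 of 9 listed striatal markers ran from 291 to 1393 and from 200 to 392 CPM, and that of 6 general neuronal markers from 4091 to 4620 and from 4009 to 4786 CPM. Of the striatal markers 6 of 8 were lower. Neocortical markers had 2 of 8 higher and 4 lower (medians of 396 and 296 CPM), interneuron markers 3 of 9 lower (1212 and 1090 CPM), microglial markers 4 of 7 higher (318 and 386 CPM) and endothelial markers 4 of 6 higher (166 and 194 CPM). The thalamus and habenula markers summed to a median of 417 CPM in low-numbered and 142 CPM in high-numbered libraries, and all 12 were below 0 with 0 called. Of the oligodendrocyte markers 0 of 8 were called with all 8 below 0, astrocyte markers had 1 of 7 higher and 2 lower, and neuronal markers 1 of 6 higher and 1 lower. Of the nuclear or ribosomal RNAs Rn45s and Malat1 were lower, which is a description, since the border between the classes was placed on Rn45s. No marker of these lists was at 0 in all libraries, and apart from the thalamus markers, which were a term in 1 of the fits below, their part in the differences was not tested.

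**Figure D3:**
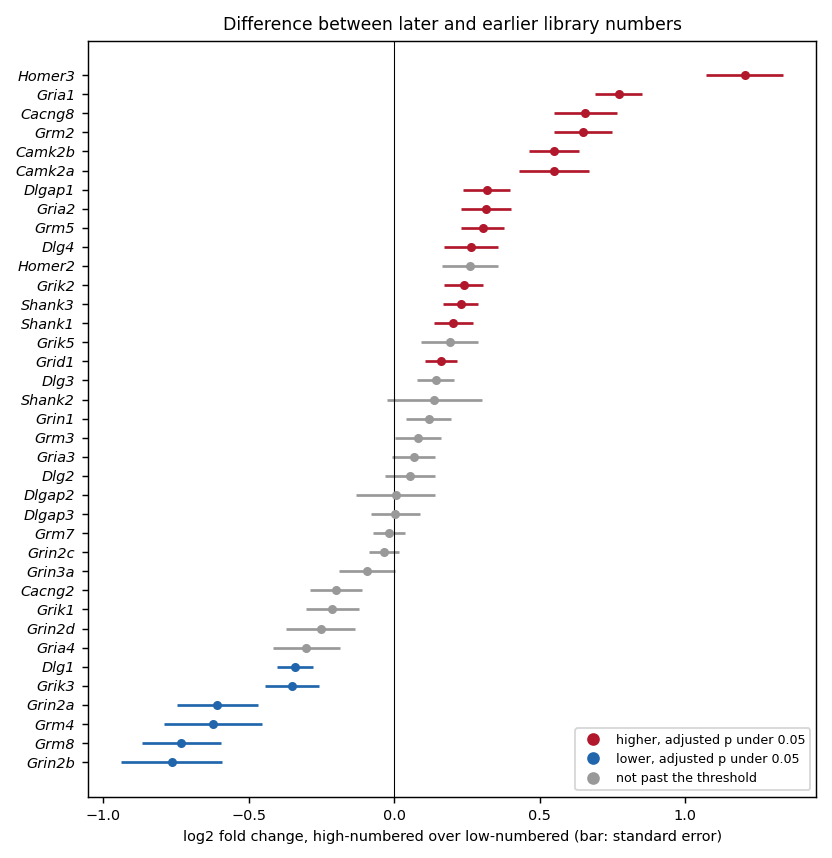
Log2 fold change of each of the 37 genes between high-numbered and low-numbered libraries with its standard error, ordered by size. The 14 genes in red were higher and the 6 in blue lower with an adjusted p under 0.05, from Homer3 at 1.21 to Grin2b at −0.77.

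Of the AMPA receptor subunits Gria1 and Gria2 were higher in the high-numbered libraries and Gria3 and Gria4 did not pass. Gria1 (chromosome 11, 57011387 to 57330244, GRCm38) ran from 367 to 545 CPM (median 400) in low-numbered and from 499 to 900 CPM (median 725) in high-numbered libraries. The log2 fold change was 0.77 ± 0.08 (adjusted p = 1.10e-06), and a few libraries of the classes overlapped between 499 and 545 CPM. Gria2 ran from 186 to 266 CPM (median 225) and from 207 to 337 CPM (median 281), a log2 fold change of 0.32 ± 0.09 (adjusted p = 0.0114), with wide overlap. Gria3 differed by 0.07 ± 0.07 (adjusted p = 0.570) and Gria4 by −0.30 ± 0.12 (adjusted p = 0.0663). Cacng8 (chromosome 7, 3390683 to 3415648), which binds AMPA receptors and promotes their surface expression, ran from 83.0 to 122 CPM (median 112) and from 112 to 261 CPM (median 183), a log2 fold change of 0.66 ± 0.11 (adjusted p = 0.000170). The 3 thalamic high-numbered libraries had 112 to 120 CPM of Cacng8 and the other 10 had 150 to 261 CPM, so that these 10 did not overlap with the low-numbered libraries. Thalamus markers summed to 110.5 to 237 CPM in these 10 and to 163 to 557 CPM in the low-numbered libraries, so the sets also differ in thalamic content. Gria1 and, below, Grm2, Grm4, Dlg4, Dlgap1, Shank1, Camk2a and Camk2b also had no overlap between these sets, and the same limit holds for them. The share of all genes without such overlap was not computed. Cacng2 differed by −0.20 ± 0.09 (adjusted p = 0.118).

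The difference of Gria1 was larger than that of Gria2, and the ratio of their counts differed as well. The Gria1 to Gria2 ratio ran from 1.40 to 2.24 (median 1.87) in low-numbered and from 2.13 to 2.96 (median 2.61) in high-numbered libraries. The mean log2 ratio was 0.89 ± 0.19 (SD, n = 11) and 1.36 ± 0.14 (SD, n = 13), with p = 2e-05 in a two-sided permutation test, the smallest that 100000 resamples can give, and an adjusted p of 0.0003 over 15 such tests. In the 3 thalamic libraries the ratio was 2.41 to 2.95, within the range of the other high-numbered ones. The other 14 ratio tests, of Grin2a to Grin2b, Gria1 to Gria2 and Camk2a to Camk2b between groups or classes, had adjusted p-values of 0.520 to 0.918 in exact or resampled permutation tests. As shares of summed AMPA receptor levels per kilobase, Gria1 made up a median of 56.3% (50.8% to 61.4%) in low-numbered and 67.8% (61.9% to 71.0%) in high-numbered libraries.

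Among NMDA receptor subunits Grin2a and Grin2b were lower in the high-numbered libraries and the other 4 did not pass. Grin2b (chromosome 6, 135713233 to 136173511) ran from 30.9 to 74.5 CPM (median 39.4) in low-numbered and from 17.8 to 36.9 CPM (median 26.0) in high-numbered libraries, a log2 fold change of −0.77 ± 0.17 (adjusted p = 0.00346). Grin2a (chromosome 16, 9567898 to 9995560) ran from 6.07 to 15.3 CPM (median 9.08) and from 4.70 to 8.07 CPM (median 6.39), a log2 fold change of −0.61 ± 0.14 (adjusted p = 0.00301). The ranges of both genes overlapped between classes. Grin1 differed by 0.12 ± 0.08 (adjusted p = 0.299), and Grin2c, which is known from cerebellum and astrocytes, by −0.04 ± 0.05 (adjusted p = 0.680). Grin2b and Grin2a counted 1.07% and 0.410% of summed NMDA receptor levels per kilobase at the median of low-numbered libraries, and 0.684% and 0.266% in high-numbered ones. These shares divide by merged exons of 24787 and 14967 bases, beside 4446 and 4392 coding bases. The annotation used in counting is not known, so the shares may be too low and do not measure the subunits' true part.

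The 4 low-numbered libraries with the most nuclear or ribosomal RNA, WT control 1 and 2, KO control 2 and KO stress 1, had 51050 to 58780 CPM of that list, and these were chosen after the values were seen. They also held the 4 highest values of Grin2b, at 74.5, 66.4, 71.2 and 59.0 CPM in that order, beside 30.9 to 48.8 CPM in the other 7 low-numbered libraries. Among low-numbered libraries the 4 highest values of Shank2 were in the same libraries, at 140, 136, 107 and 99.0 CPM, beside 54.4 to 89.5 CPM. High-numbered libraries reached 117 CPM of Shank2, so that its high values were not limited to these 4. Rn45s made up most of that list's sum in low-numbered libraries, and its part in these values was not tested.

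**Figure D4:**
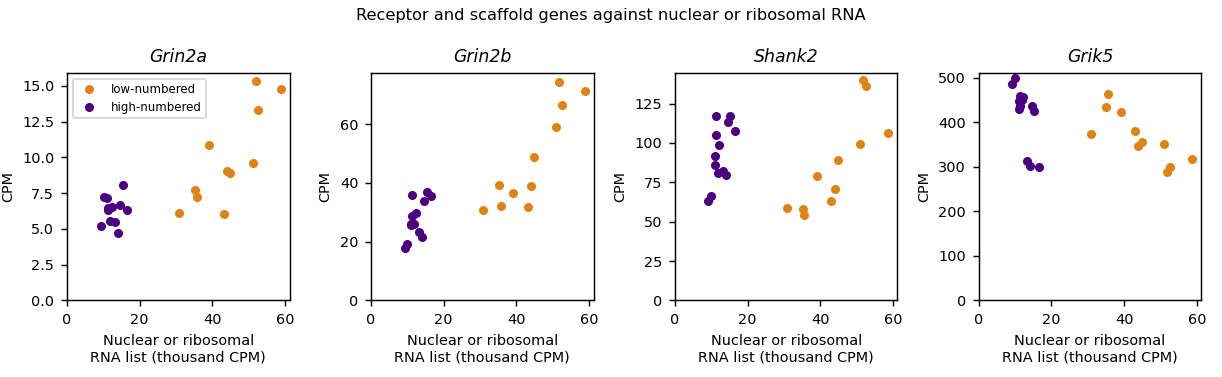
Levels of Grin2a, Grin2b, Shank2 and Grik5 in CPM against the summed CPM of 5 nuclear or ribosomal RNAs, divided by 1000, with 1 point per library coloured by number class. Grin2b reaches 59.0 to 74.5 CPM in the 4 libraries with the most nuclear or ribosomal RNA.

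Kainate receptor genes moved in both directions. Grik3, a subunit of kainate receptors with low glutamate affinity, ran from 75.6 to 124 CPM (median 94.9) in low-numbered and from 47.2 to 88.5 CPM (median 73.8) in high-numbered libraries, a log2 fold change of −0.35 ± 0.09 (adjusted p = 0.00872). Grik2 ran from 23.2 to 36.4 CPM (median 28.4) and from 28.7 to 39.0 CPM (median 33.9), a log2 fold change of 0.24 ± 0.07 (adjusted p = 0.0135). Both overlapped between classes, and Grik1 and Grik5 did not pass (−0.21, adjusted p = 0.0966, and 0.19, adjusted p = 0.176). Grid1 ran from 42.6 to 59.2 CPM and from 47.3 to 68.4 CPM, a log2 fold change of 0.16 ± 0.06 (adjusted p = 0.0397), which passed in 13 of 24 fits without 1 library and had an adjusted p of 0.0891 without WT stress replicate 2.

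Of the metabotropic receptors 2 were higher and 2 lower. Grm2 (chromosome 9, 106643095 to 106656082), a receptor of the mossy fibre and perforant path terminals, ran from 49.3 to 74.3 CPM (median 64.6) in low-numbered and from 66.5 to 130 CPM (median 107) in high-numbered libraries, a log2 fold change of 0.65 ± 0.10 (adjusted p = 7.91e-05). Grm5 ran from 64.5 to 91.9 CPM (median 77.0) and from 75.1 to 130 CPM (median 98.7), a log2 fold change of 0.30 ± 0.08 (adjusted p = 0.00568). The overlap of Grm2 lay in the 3 thalamic libraries, at 66.5 to 76.1 CPM, while the other 10 high-numbered libraries held at least 90.9 CPM.

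Grm4 and Grm8, presynaptic receptors that couple to inhibitory G proteins, went the other way. Grm4 (chromosome 17, 27422387 to 27521403) ran from 44.8 to 72.1 CPM (median 54.2) in low-numbered and from 19.9 to 66.4 CPM (median 30.5) in high-numbered libraries, a log2 fold change of −0.62 ± 0.17 (adjusted p = 0.0116). The 3 thalamic libraries held 58.8 to 66.4 CPM of Grm4 and the other 10 held 19.9 to 38.1 CPM, below every low-numbered library. Grm8 (chromosome 6, 27275119 to 28135178) ran from 6.98 to 12.4 CPM (median 10.3) and from 4.11 to 11.4 CPM (median 5.57), a log2 fold change of −0.73 ± 0.14 (adjusted p = 0.000448). Without the 3 thalamic libraries the log2 fold changes of Grm4 and Grm8 were −0.90 each. Grm3 and Grm7 differed by 0.08 and −0.02 and did not pass (adjusted p = 0.502 and 0.853). Grm2 made up a median of 26.4% of summed metabotropic receptor levels per kilobase in low-numbered and 38.0% in high-numbered libraries, and Grm4 19.1% and 9.44%.

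Of the 12 scaffold genes 5 were higher in the high-numbered libraries, 1 was lower and 6 did not pass the threshold. Homer3 (chromosome 8, 70282827 to 70294361), an adaptor between metabotropic receptors and Shank, had the largest difference of the 37 genes. It ran from 17.3 to 32.6 CPM (median 25.3) in low-numbered and from 38.7 to 86.0 CPM (median 57.1) in high-numbered libraries without overlap, a log2 fold change of 1.21 ± 0.13 (2.31-fold, adjusted p = 2.63e-06). How many of all genes had no overlap between the classes was not computed. Homer2 lay just outside the threshold with 0.26 ± 0.10 (adjusted p = 0.0541).

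Dlgap1, which links Dlg4 to Shank, ran from 323 to 411 CPM (median 354) and from 292 to 515 CPM (median 481), a log2 fold change of 0.32 ± 0.08 (adjusted p = 0.00683). Shank3 ran from 331 to 456 CPM (median 410) and from 405 to 503 CPM (median 445), a log2 fold change of 0.23 ± 0.06 (adjusted p = 0.00822). Shank1 ran from 854 to 1033 CPM (median 931) and from 773 to 1184 CPM (median 1122), a log2 fold change of 0.20 ± 0.07 (adjusted p = 0.0301). In the 3 thalamic libraries Dlgap1 and Shank1 were at the low end of the high-numbered range, at 292 to 351 and 773 to 864 CPM.

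Dlg4 ran from 975 to 1265 CPM (median 1118) and from 915 to 1724 CPM (median 1382), a log2 fold change of 0.26 ± 0.09 (adjusted p = 0.0436). The lowest 3 of the high-numbered values of Dlg4, 915 to 952 CPM, were those of the thalamic libraries, and the other 10 held at least 1342 CPM. The call of Dlg4 passed in 5 of 24 fits without 1 library (adjusted p up to 0.0971, without WT control replicate 1) and that of Shank1 in 17 of 24 (up to 0.0743, without KO control replicate 6), and with RLE size factors Dlg4 and Grid1 missed the threshold. Dlg1, a Dlg protein that also traffics receptors to the synapse, ran from 85.3 to 122 CPM (median 98.9) and from 67.5 to 94.0 CPM (median 75.7), a log2 fold change of −0.34 ± 0.06 (adjusted p = 0.000412). Dlg2, Dlg3, Dlgap2, Dlgap3 and Shank2 had differences of 0.05, 0.14, 0.01, 0.0028 and 0.14 and did not pass.

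Both kinase subunits were higher in the high-numbered libraries. Camk2a ran from 2435 to 3202 CPM (median 2918) in low-numbered and from 2120 to 5130 CPM (median 4574) in high-numbered libraries, a log2 fold change of 0.55 ± 0.12 (adjusted p = 0.00222). Camk2b (chromosome 11, 5969644 to 6066362) ran from 1169 to 1386 CPM (median 1221) and from 1178 to 2266 CPM (median 1906), a log2 fold change of 0.55 ± 0.09 (adjusted p = 9.31e-05). The 3 thalamic libraries held 2120 to 2707 CPM of Camk2a, lower than the 4450 to 5130 CPM of the other 10, and their Camk2a to Camk2b ratio was 1.80 to 1.93 beside 2.26 to 2.74.

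**Figure D5:**
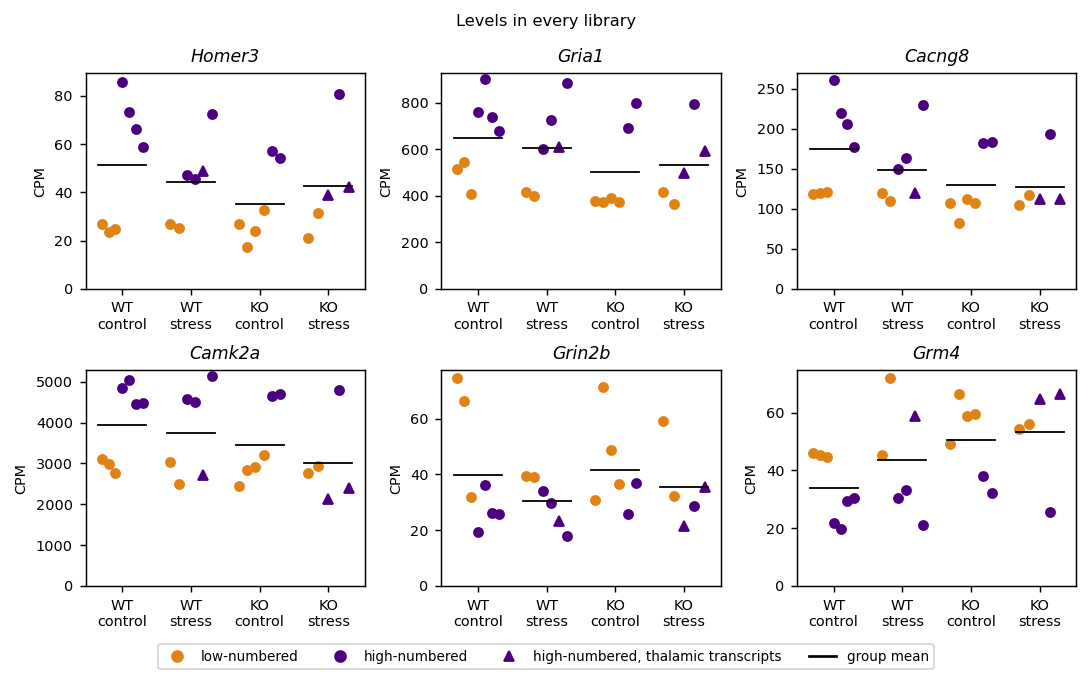
Levels of Homer3, Gria1, Cacng8, Camk2a, Grin2b and Grm4 in CPM in each of the 24 libraries by group, coloured by number class, with triangles for the 3 libraries of high thalamic markers and a line for the group mean. High-numbered libraries hold at least 38.7 CPM of Homer3 and low-numbered ones at most 32.6 CPM in every group.

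Leaving out the 3 thalamic libraries raised the count between classes to 29 of 37 members, 19 higher and 10 lower, where 31.1% of all genes passed, and all 20 earlier calls were among them. No low-numbered library was left out, and these held 163 to 557 CPM of thalamus markers, beside 110.5 to 237 CPM in the 10 high-numbered libraries kept. With the mean level of the thalamus markers as a term in the fit, 9 of the 20 passed, where 13.0% of all genes did. These were Gria1, Grin2a, Grm2, Grm8, Cacng8, Dlg1, Shank3, Homer3 and Camk2b. The 11 that no longer passed were Gria2, Grik2, Grik3, Grin2b, Grid1, Grm4, Grm5, Dlg4, Dlgap1, Shank1 and Camk2a. In that fit the log2 fold change was 0.25 for Camk2a (adjusted p = 0.1002), 0.16 for Gria2 (adjusted p = 0.237), −0.31 for Grm4 (adjusted p = 0.122) and 0.03 for Dlg4 (adjusted p = 0.822). It was 0.16 for Grm5, 0.13 for Dlgap1 and 0.05 for Shank1, while Grm2 kept 0.42, Cacng8 0.40 and Camk2b 0.35. With the stress libraries alone 2 members passed, Gria1 and Homer3, where 2.13% of all genes did, and with the control libraries alone 24 passed, 18 of them among the 20, where 24.4% of all genes did. With the replicate number as a block 0 members passed, where 0.208% of all genes did. Across the 37 genes, as a description, the class difference had r = 0.60 and rho = 0.59 with the log2 level per kilobase and r = 0.21 and rho = 0.15 with the GC content of the transcript.

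Of 49 other genes of the glutamate synapse, such as further subunits, auxiliary proteins, adhesion molecules and transporters, 48 were tested. None of the 48 passed in any of the 5 comparisons of stress and genotype (edgeR), where at most 0.135% of all genes did. In high-numbered libraries 16 of the 48 were higher and 9 lower, with a median log2 fold change of 0.06. Of all genes tested 11.2% were higher and 9.56% lower there, and of the 37 members 14 were higher and 6 lower. The smallest p-values belonged to Shisa6, an AMPA receptor auxiliary protein (1.03 ± 0.11, adjusted p = 2.83e-06), the synaptic adhesion gene Lrrtm1 (0.58 ± 0.07, adjusted p = 3.02e-06) and the kainate receptor subunit Grik4 (0.60 ± 0.07, adjusted p = 4.36e-06), all higher. Lrrtm3, another adhesion gene of that family, was lower (−0.69 ± 0.09, adjusted p = 5.98e-06).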

How the data were processed

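Hippocampal RNA was measured in 24 libraries, with groups and replicate numbers taken from the sample titles. The authors deposited whole-number read counts for each gene symbol and library, not normalized. The submitters' processing notes name STAR, DESeq2 and mm10 without versions. How reads were counted, with which annotation and whether by strand, is not given in the sources used here, so reads of overlapping or antisense genes cannot be told apart. The normalized counts and the comparison that the authors also deposited were not used.

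From the counts, genes were filtered with filterByExpr of edgeR (version 4.0.16, minimum count 10, R 4.3.3), and 16313 of 24062 genes were tested. TMM factors and a robust quasi-likelihood fit of 4 group means over all 24 libraries gave 20 residual degrees of freedom and a biological coefficient of variation of 0.219. Number class was tested in the same fit with 1 term added. Benjamini-Hochberg adjustment ran over all genes tested, with a threshold of 0.05. CPM values use TMM-scaled library sizes. Standard errors were taken from the log2 fold change and the F statistic (its square root as divisor) and are approximate. The tests were checked on simulated counts.

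Alternatives were RLE factors, DESeq2 1.42.0, limma 3.58.1 (voom with quality weights), no filter, 1 CPM in 5 libraries, each library left out, the 3 thalamic libraries left out, number class or thalamus markers as terms, each class alone, and a replicate block. Subunit ratios of counts were tested by permutation with SciPy 1.17.1, exact for 2 groups. Positions and lengths are of GENCODE M21.

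The 37 genes, the marker lists and the number classes were chosen with earlier results of these data known. Genes named are, per comparison, all members past the threshold or else the 2 of smallest p, the highest and lowest of each role, and 9 genes always described (Gria1, Gria2, Grin1, Grin2a, Grin2b, Grm5, Dlg4, Camk2a and Shank3). Depth of at least 25711872 counts per library gave every member at least 132 counts in each library, and all pairs of libraries differed by more than sampling noise (smallest mean chi-square per gene 5.79).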

Additional observations from a re-analysis of the deposited data

Results flagged for a closer look

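Over the 37 genes and 3 subunit ratios in 4 groups, 160 sets of values were examined for 1 library far from the others of its group (Dixon's test at the 95% level), and 8 were found. That level marks about 1 in 20 independent sets drawn from 1 normal distribution. The sets here share libraries and the groups mix number classes, so the 8 cannot be read against that rate. Grin2c was at 92.2 CPM in WT stress replicate 6, beside 81.9 CPM for the nearest library, and at 101.8 CPM in KO stress replicate 2, beside 82.2 CPM. KO stress replicate 4 stood above its group for 3 genes, with Grm2 at 106.9 CPM beside 69.9, Cacng8 at 193.3 CPM beside 118, and Camk2b at 2059.0 CPM beside 1386. It is the high-numbered KO stress library outside the thalamic set. Shank3 was low in KO control replicate 1, at 330.9 CPM beside 430 CPM. The Grin2a to Grin2b count ratio was 0.2959 in KO control replicate 4, beside 0.219, and the Camk2a to Camk2b count ratio was 2.044 in KO control replicate 1, beside 2.32.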

How the results depend on the processing

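The count of 0 members for stress, genotype and their interaction was found in all 24 fits without 1 library and in the 12 or 13 other alternatives of each comparison, the lowest adjusted p of any member being 0.230 to 0.834. The count of 20 members between number classes was within 1.5 times of that in 7 of 10 alternatives, and was 9 with the thalamus marker mean as a term, 2 in the stress libraries alone and 0 with the replicate block. The cause was not tested. Without 1 library each it ran from 17 to 22. A pairing of libraries by replicate number was not seen: same-numbered libraries of 2 groups correlated with r = −0.278 to 0.489, and at most 1 library per comparison correlated best with its own number. Number class was not removed from these values, so they cannot exclude a pairing. The block, which overlaps with the class by construction, left 34 of all genes called between classes and changed no call of a member in the other comparisons.

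Values that changed sign were small and passed no test. In low-numbered libraries alone Dlgap3 differed by 0.03475 between KO stress and KO control, and Grm2 by 0.02623 between KO stress and WT stress, or 0.03658 with the thalamus term. Of the log2 ratios, Grin2a to Grin2b was 0.09918 (WT stress) and 0.1265 (KO control against WT control) in low-numbered libraries, and Gria1 to Gria2 was 0.001433 (WT stress) in high-numbered ones. Between KO stress and WT stress the Gria1 to Gria2 difference was 0.01856 in low-numbered and 0.01601 in high-numbered libraries. Camk2a to Camk2b was 0.03131 (KO control against WT control) in high-numbered libraries, and 0.0635 between classes without the 3 thalamic libraries. Without 1 library each, the differences ran from −0.1065 to 0.08407 for Grin2a to Grin2b with WT stress, −0.1882 to 0.01817 for Grin2a to Grin2b in controls, −0.1222 to 0.03924 for Gria1 to Gria2 with WT stress, −0.1047 to 0.06724 for Gria1 to Gria2 under stress, and −0.04457 to 0.005776 for Camk2a to Camk2b between classes.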
